A study of Homo sapiens with 6 samples.

Results

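The genes described here are 10 transcription factor genes of the immediate early and stress response, chosen by symbol: FOS, FOSB, FOSL1, FOSL2, JUN, JUNB and JUND of activator protein 1 (AP-1), together with ATF3, EGR1 and MYC. All 10 were found among the 25737 entries of the count files, each as 1 entry. Expression was measured by QuantSeq 3′-mRNA sequencing, in which reads come from the 3′ end of polyadenylated transcripts, in A549 cells, a human lung carcinoma epithelial line, and BEAS-2B cells, an immortalized human bronchial epithelial line, both labelled as wild type. The groups were untreated cells (control, 0 ng/mL) and cells given 1 or 5 ng/mL of TGF-β1, the cytokine used to model fibrosis, for 48 h. Each of the 6 conditions was 1 library. No spread between cultures of a condition can be given, and no test within a line was possible. A fit over both lines, with the line as a block, is given after the calls. The TGF-β1 was, by the labels, given in medium with 1% serum. The labels give no medium for the untreated cells during those 48 h, so that a change of serum and the cytokine cannot be told apart for genes that respond to both.

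AP-1 is a dimer of a JUN protein (JUN, JUNB, JUND) with another JUN protein, a FOS protein (FOS, FOSB, FOSL1, FOSL2) or a member of the ATF family, and binds short palindromic sites in the promoters and enhancers of genes for proteases, cytokines and cell cycle regulators. FOS, EGR1, ATF3 and JUNB are textbook immediate early genes, whose mRNAs appear soon after serum, growth factors or stress through kinase cascades and then decay quickly, whereas JUND is present in most resting cells. TGF-β signals through SMAD proteins, which bind DNA together with partners that include AP-1. MYC, which forms a dimer with MAX and drives growth and ribosome production, is repressed by SMAD complexes in many epithelial cells.

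Short stretches of 4 promoters are shown because they hold matches to sites bound by JUN and ATF dimers or, for EGR1, by serum response factor. They were read from RefSeq (GRCh38.p14), in which 8 of the 10 genes had a promoter entry, and are written 5′ to 3′ on the strand of the gene, with the matched motif in capitals. The JUN stretch (chr1:58784096-58784125, minus strand) runs from base 78 to base 49 before the annotated start. The ATF3 stretch (chr1:212565273-212565302, plus strand) runs from base 134 to base 105. The JUND stretch (chr19:18281804-18281833, minus strand) runs from base 211 to base 182. The EGR1 stretch (chr5:138465369-138465410, plus strand) runs from base 110 to base 69.
JUN: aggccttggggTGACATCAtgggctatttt
ATF3: cacctatgataTGACATCAtatggccactc
JUND: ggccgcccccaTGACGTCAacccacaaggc
EGR1: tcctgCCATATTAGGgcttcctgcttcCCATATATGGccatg

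JUN and ATF3 shared the octamer TGACATCA, a variant of the site bound by JUN and ATF dimers, which was found on either strand within 250 bases before the start in 2.37% of 35116 RefSeq promoters. JUND held TGACGTCA, the cyclic AMP response element, found in 1.65% of promoters. EGR1 held 2 CArG boxes, the site of serum response factor, found in 1.16% of promoters. It also held 1 match to GCGNGGGCG, the site of EGR1 itself, which 8.41% of promoters hold. The AP-1 heptamer TGANTCA and the MYC box CACGTG, found in 6.57% and 6.34% of promoters, matched no window of the 8 genes. ATF3 had 2 promoter entries. The stretch shown is from entry 1, and entry 2 held no match to any motif searched. No motif searched was matched in the windows of FOS, FOSB, FOSL2 and JUNB. A match is a match of letters, and TGANTCA, TGACATCA and TGACGTCA do not overlap in the genes shown.

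Total counts ranged from 4120624 to 7841350 per library. Counts were scaled with TMM factors, and the normalized count is the count at the mean effective library size. Adding 1 and taking log2 gives the normalized data (ND) value. A gene was called when its fold change (FC, computed after adding a pseudocount of 1) reached 2 and either library of the pair had an ND value of 7 or more. The limits of FC and ND are those in the methods of the study, whereas the scale behind its ND value and the rule for the pair of libraries were not given there, and those used here are a choice. An ND value of 7 equals a normalized count of 127, or 24.7 CPM. With log2(CPM + 1) in place of this ND value, 0 of the 10 genes were called at 1 ng/mL and 2 at 5 ng/mL in A549, and 1 and 2 in BEAS-2B cells, all of them upregulated, and over all genes 728 in A549 and 357 in BEAS-2B cells were called at 5 ng/mL. Intervals beside ratios are exact 95% Clopper-Pearson intervals of the 2 counts. Those beside differences between the lines in log2 ratio are 95% Wald intervals from the counts compared. They cover counting error only, and the reads carry no molecular identifiers. The cells responded at both doses. The FC of FN1, encoding fibronectin, was 2.39 and 2.92 in A549 and 15.0 and 15.6 in BEAS-2B cells at 1 and 5 ng/mL. That of SMAD7, a TGF-β target that encodes an inhibitory SMAD, was 2.30 and 4.19 in A549 and 7.99 and 8.44 in BEAS-2B cells. In A549 SMAD7 had 24, 95 and 132 counts at 0, 1 and 5 ng/mL, under the minimum, so that it could not be called there. Of the epithelial markers, KRT8 and KRT18 had 175 to 14592 counts in all libraries. KRT8 fell in A549, with log2 FC of −1.89 at 1 and −2.12 at 5 ng/mL, and had −0.85 and −0.91 in BEAS-2B cells. KRT18 had −0.87 and −0.94 in A549 and −0.97 and −0.64 in BEAS-2B cells, none of them called. KRT7 had 3473, 20603 and 19283 counts in A549 and 1063, 2966 and 2315 in BEAS-2B cells, an FC at 5 ng/mL of 4.35 and 2.46, and KRT19 had 5 to 46 counts. CDH1, encoding E-cadherin, had 640, 30 and 8 counts in A549 at 0, 1 and 5 ng/mL and 0 to 2 in BEAS-2B cells. EPCAM had 49, 7 and 2 counts in A549 and 0 in BEAS-2B cells, and KRT5, KRT14 and TP63 of basal bronchial cells were at 0 or 1 in BEAS-2B cells. KRT17, of the same list, had 247, 2768 and 3006 counts there, with log2 FC of 3.49 and 3.78. Of the leukocyte markers CD3E was at 0, PTPRC had 0 to 4 counts and CD14 had 2 to 57, and endothelial CDH5 and VWF were at 0.

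TGF-β1 treatment was accompanied by higher counts of JUN and JUNB in both cell lines, by higher counts of FOSL2 in A549 cells and by lower counts of FOSL1 in BEAS-2B cells. At 5 ng/mL in A549, FOSL2, JUN and JUNB were upregulated and none of the 10 genes was downregulated, where 16.1% of all 7115 genes at the minimum were upregulated and 17.1% downregulated. At 1 ng/mL in A549, FOSL2 was upregulated and none was downregulated, beside 10.9% and 12.6% of all genes. At 5 ng/mL in BEAS-2B cells, JUN and JUNB were upregulated and FOSL1 was downregulated, beside 7.33% and 11.6% of all genes. At 1 ng/mL in BEAS-2B cells, JUNB was upregulated and none was downregulated, beside 5.66% and 9.13%. JUN, JUNB, JUND and FOSL2 reached the minimum in both lines. FOSL1 reached it only in the BEAS-2B control, so that its level could be called only as falling from there. FOS, FOSB, ATF3, EGR1 and MYC stayed under it in every library and could not be called, and their values are given with counting intervals. The contrasts of 1 and 5 ng/mL in a line share its control library. Between 5 and 1 ng/mL none of the 10 genes was called in either line, beside 3.40% of all genes in A549 and 0.904% in BEAS-2B cells, called in either direction. To set the doses against a spread between libraries, all 6 were fitted together with edgeR's quasi-likelihood test, with cell line and dose as additive terms. This fit was chosen after seeing the data. It leaves 2 residual degrees of freedom and takes any difference between the responses of the lines as error. At 5 ng/mL JUN (log2 FC 1.37, Benjamini-Hochberg adjusted p = 0.0210) and JUNB (1.36, adjusted p = 0.0197) rose in this edgeR fit, in 2 of 2 lines each, and none of the 10 genes fell, beside 3.57% and 5.96% of 14527 entries that rose and fell. At an unadjusted p under 0.05 by edgeR, 2 of the 10 were higher and 3 lower, beside 3993 of the 14527 entries in either direction. ATF3 (log2 FC −1.15, adjusted p = 0.133), FOSL1 (−0.94, 0.174) and FOS (−2.60, 0.181) did not pass the adjusted edgeR threshold of 0.05. At 1 ng/mL none of the 10 passed it in either direction, beside 1.07% and 1.59% of entries. At that dose 3 had an unadjusted p under 0.05 by edgeR, beside 2833 of the 14527 entries, while DESeq2 with the same terms called JUNB. With the GC trend described below removed, JUNB at 5 ng/mL no longer passed the edgeR test (log2 FC 0.82, adjusted p = 0.150), whereas JUN did (1.08, adjusted p = 0.0288). Without the A549 library at 5 ng/mL neither passed by edgeR, and without the BEAS-2B library at 5 ng/mL JUN alone did. FOSL2, which was called in A549 cells, had a log2 FC of 0.64 over both lines (edgeR adjusted p = 0.281).

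Of all calls, 48.4% at 5 ng/mL in A549 and 38.7% in BEAS-2B cells were upregulated genes, against 33.8% and 26.9% with total counts in place of TMM.

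**Figure D1:**
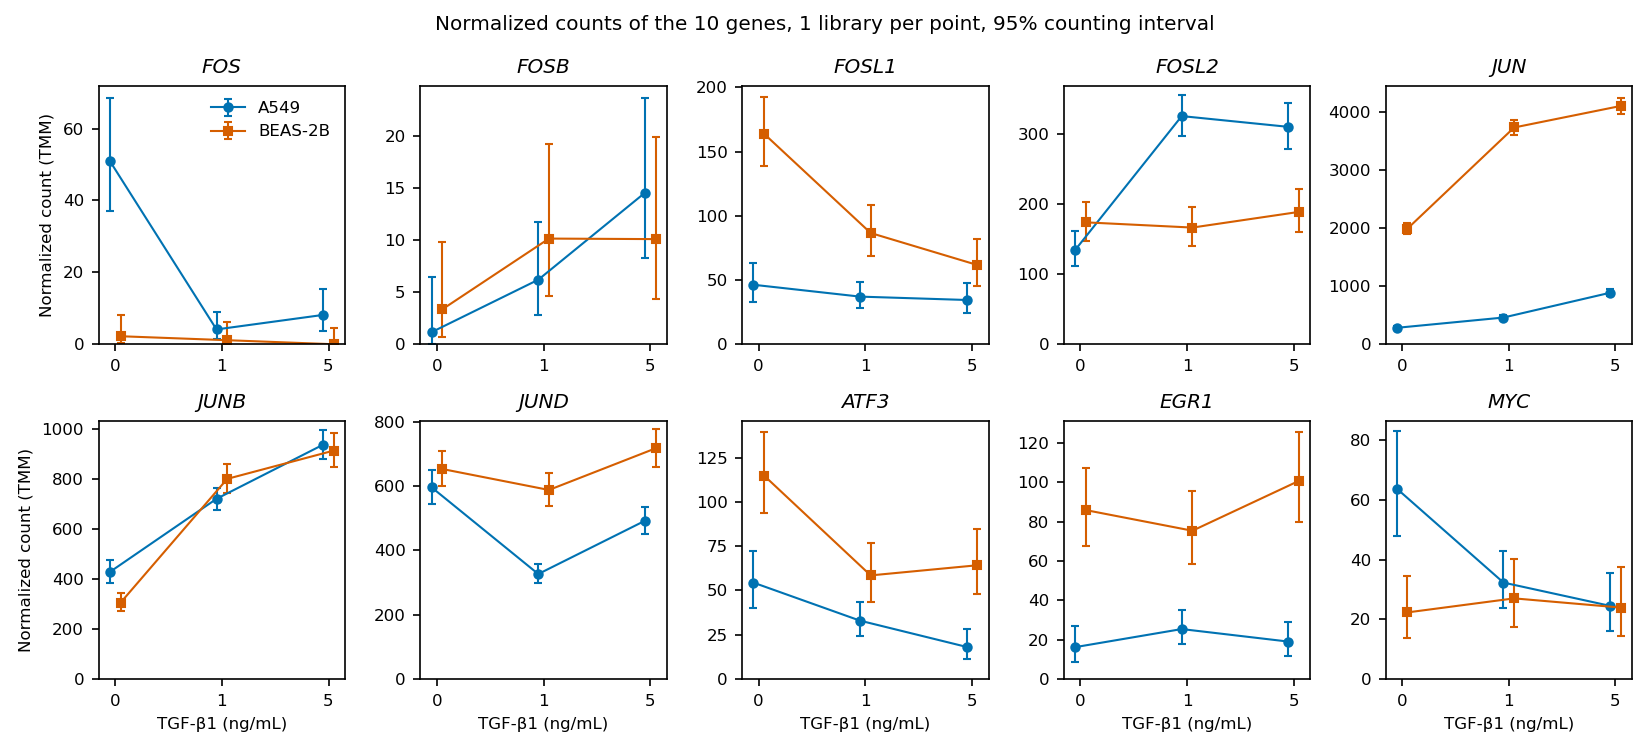
Normalized counts of the 10 genes (y axis, linear from 0, a scale of its own in each panel) against the TGF-β1 dose in ng/mL (x axis) in A549 (blue circles) and BEAS-2B cells (orange squares). Each point is 1 library and bars are 95% Poisson counting intervals. JUN and JUNB are higher at 5 ng/mL than in the control of both lines, FOSL2 is higher in A549 and FOSL1 lower in BEAS-2B cells.

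JUN, the founding AP-1 subunit, is an intronless gene (ENSG00000177606, GENCODE annotation of GRCh38, chr1:58780788-58784327, minus strand). Its normalized counts at 0, 1 and 5 ng/mL were 283, 459.6 and 886 in A549 and 1989.9, 3730.1 and 4101 in BEAS-2B cells. Every BEAS-2B library was above every A549 library, and within each line the order of the levels followed the dose. In A549 the ratio to control was 1.63 (1.40 to 1.89) at 1 ng/mL, below the limit of 2, and JUN rose 3.14-fold (2.72 to 3.62) at 5 ng/mL. The BEAS-2B ratio was 1.87 (1.77 to 1.99) at 1 ng/mL, and JUN rose 2.06-fold (1.94 to 2.18) at 5 ng/mL, a call just inside the limit. From 1 to 5 ng/mL the ratio was 1.93 (1.75 to 2.13) in A549 and 1.10 (1.05 to 1.15) in BEAS-2B cells. Most of the BEAS-2B difference was therefore already present at the lower dose, whereas the A549 level was higher again at the higher dose. With total counts in place of TMM the log2 FC of JUN at 5 ng/mL in BEAS-2B cells was 0.91, and with the GC trend described below removed it was 0.93, both under the limit of 1.

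JUNB, which often opposes JUN on growth genes, is also intronless (ENSG00000171223, chr19:12791496-12793315, plus strand). Its normalized counts at 0, 1 and 5 ng/mL were 429, 721 and 938 in A549 and 306, 801 and 914 in BEAS-2B cells. The ranges of the lines overlapped, and in both lines the level was higher at each higher dose. JUNB rose 2.62-fold (2.28 to 3.02) at 1 ng/mL and 2.99-fold (2.60 to 3.45) at 5 ng/mL in BEAS-2B cells. In A549 the ratio was 1.68 (1.49 to 1.90) at 1 ng/mL, and JUNB rose 2.19-fold (1.94 to 2.47) at 5 ng/mL. The A549 call depends on the scaling. With total counts its log2 FC at 5 ng/mL was 0.92, and with the GC trend removed it was −0.02 at 1 and 0.35 at 5 ng/mL, none of them called. In BEAS-2B cells it stayed past the limit under both, at 1.26 and 1.35 at 1 ng/mL. HOOK2 overlaps JUNB on the opposite strand and had 32 to 170 counts against 274 to 1050 for JUNB. Whether the counting used strand is not given in the sources used here.

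JUND, the constitutive JUN gene (ENSG00000130522, chr19:18279760-18281622, minus strand), had normalized counts of 596, 326 and 492 in A549 and 653, 587 and 717 in BEAS-2B cells at 0, 1 and 5 ng/mL. It passed the fold limit in neither line, and its lowest level was in the A549 library at 1 ng/mL. The ratio to control in A549 was 0.548 (0.483 to 0.622) at 1 ng/mL and 0.826 (0.731 to 0.933) at 5 ng/mL. The BEAS-2B ratio was 0.900 (0.798 to 1.01) at 1 ng/mL and 1.10 (0.977 to 1.23) at 5 ng/mL, and both intervals include 1. With the GC trend removed, the log2 FC of JUND in A549 was −1.63 at 1 and −1.06 at 5 ng/mL, both past the limit.

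JUNB and JUND are among the most GC-rich transcripts measured. Their GC contents of 64.9% and 69.7% lay at the 96.8th and 99.7th percentile of the 9419 expressed genes with a known transcript sequence. In A549 cells the log2 FC of all genes moved with GC content. Its median over the 471 genes of the most GC-rich of 20 bins was 0.77 at 1 and 0.78 at 5 ng/mL, whereas over the 471 genes of the most GC-poor bin it was −0.15 and −0.22. In BEAS-2B cells the medians of the most GC-rich bin were 0.04 and 0.20. Relative to its bin, JUNB in A549 was at the level of the other GC-rich genes at 1 ng/mL, and JUND was below them. The part of GC content in the levels of these genes was not tested.

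**Figure D2:**
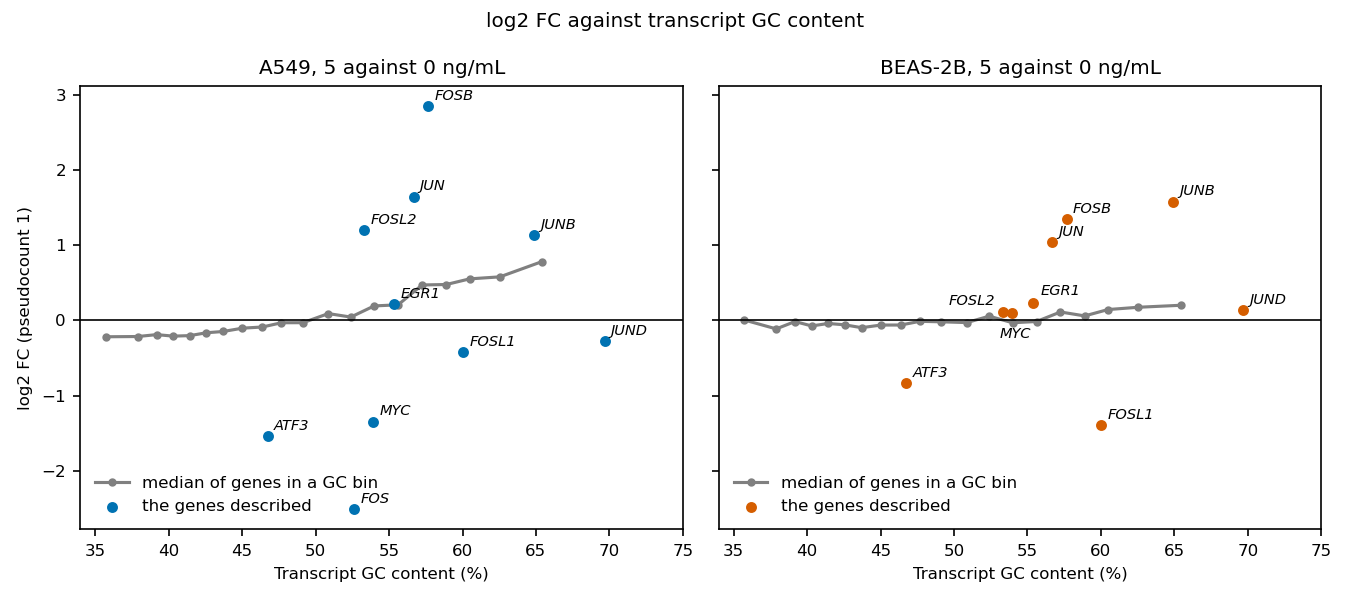
The log2 FC at 5 ng/mL against control (y axis, pseudocount 1) against transcript GC content in percent (x axis) in A549 and BEAS-2B cells. Colored points are the genes described, 1 library against 1 library, and the grey line joins the medians of 20 GC bins of expressed genes. FOS is left out for BEAS-2B cells, where it had 2 counts or fewer. In A549 the line reaches 0.78 in the bin that holds JUNB and JUND, whereas in BEAS-2B cells it reaches 0.20.

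FOSL2, which encodes the FOS-related protein FRA2 (ENSG00000075426, chr2:28392448-28417312, plus strand), had normalized counts of 134, 326 and 310.3 in A549 and 174, 167 and 189 in BEAS-2B cells at 0, 1 and 5 ng/mL. Both treated A549 libraries were above all other libraries, and the 3 BEAS-2B libraries lay close together. FOSL2 rose 2.42-fold (1.97 to 2.99) at 1 ng/mL and 2.31-fold (1.87 to 2.88) at 5 ng/mL in A549. In BEAS-2B cells the ratio was 0.957 (0.759 to 1.21) at 1 ng/mL and 1.09 (0.862 to 1.37) at 5 ng/mL. The log2 ratio was higher in A549 than in BEAS-2B cells by 1.34 (0.90 to 1.78) at 1 ng/mL and by 1.09 (0.64 to 1.53) at 5 ng/mL, intervals from counting error alone. With total counts the log2 FC in A549 at 5 ng/mL was 0.997, just under the limit, and with the GC trend removed it was 1.01.

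FOSL1, which encodes FRA1, a FOS protein prominent in invasive epithelial cells (ENSG00000175592, chr11:65892049-65900573, minus strand), had normalized counts of 164, 86.6 and 61.7 in BEAS-2B cells and 46.3, 37.1 and 34.5 in A549 at 0, 1 and 5 ng/mL. The BEAS-2B level was lower at each higher dose yet stayed above all A549 levels. FOSL1 fell 2.66-fold (1.91 to 3.75) at 5 ng/mL in BEAS-2B cells, and was 1.89-fold (1.43 to 2.53) lower at 1 ng/mL, short of the limit. The call at 5 ng/mL was lost with an ND minimum of 8, with the minimum required in both libraries and with log2(CPM + 1). With total counts and with the GC trend removed the change at 1 ng/mL was past the limit, with log2 FC of −1.04 and −1.01. In A549, where FOSL1 had 38 to 54 counts, the ratio at 5 ng/mL was 0.744 (0.464 to 1.19), which includes 1.

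FOS, the classical partner of JUN (ENSG00000170345, chr14:75278774-75282230, plus strand), had 44, 6 and 9 counts in A549 and 2, 1 and 0 counts in BEAS-2B cells at 0, 1 and 5 ng/mL. The A549 control stood apart from the other 5 libraries. As normalized counts the A549 levels were 51.0, 4.12 and 8.17, which is 12.4-fold lower (5.25 to 35.5) at 1 ng/mL and 6.24-fold lower (3.01 to 14.5) at 5 ng/mL than in the control. FOS did not reach the minimum, so that these differences were not called. In BEAS-2B cells both libraries of each comparison were at or under 3 counts, which a count of 0 still allows, and no fold is given.

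FOSB, a paralog of FOS (ENSG00000125740, chr19:45467995-45475179, plus strand), had 1, 9 and 16 counts in A549 and 3, 9 and 8 counts in BEAS-2B cells. The treated libraries of both lines had more counts than their controls, at a depth that gives wide intervals. The ratio at 5 ng/mL was 12.5 (1.95 to 525) in A549 and 3.01 (0.723 to 17.6) in BEAS-2B cells. ERCC1, a DNA repair gene that overlaps FOSB on the opposite strand, had 335 to 1193 counts and was also higher in the treated libraries. Without knowledge of the strand setting, the FOSB counts are uncertain.

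**Figure D3:**
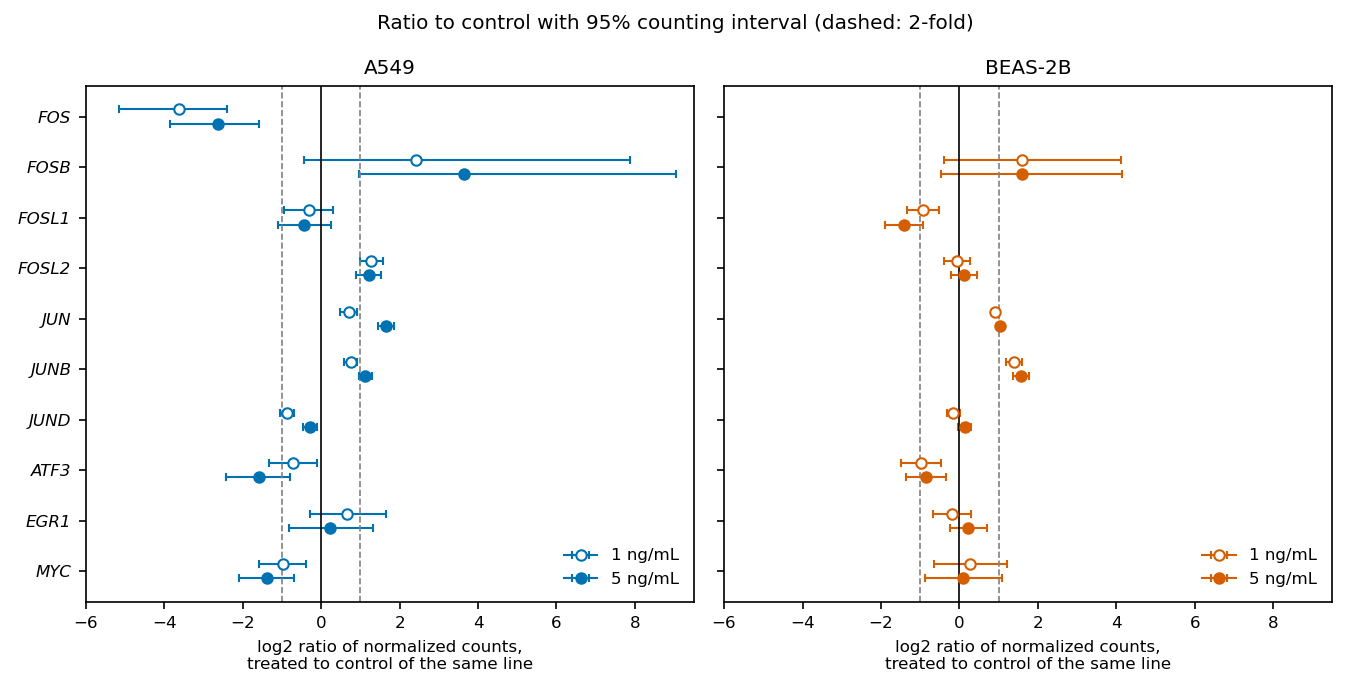
Log2 ratio of normalized counts, treated to control of the same line (x axis), for each gene (y axis) in A549 (left) and BEAS-2B cells (right). Open symbols are 1 ng/mL, filled symbols 5 ng/mL, bars are 95% Clopper-Pearson counting intervals, and dashed lines mark 2-fold. FOS is left out for BEAS-2B cells. FOSL2 lies near the upper dashed line in A549 and near 0 in BEAS-2B cells.

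The make-up of both families shifted with treatment. Reads from 3′ ends are not divided by transcript length, and shares of counts are compared here between libraries, not between genes. The FOS family together had 201, 543 and 405 counts in A549 and 308, 235 and 207 in BEAS-2B cells at 0, 1 and 5 ng/mL. Relative to control the summed level at 5 ng/mL was 1.58 (1.33 to 1.88) in A549 and 0.759 (0.633 to 0.908) in BEAS-2B cells. FOSL2 made up 57.7%, 87.3% and 84.4% of the FOS family counts in A549 and 50.6%, 63.0% and 72.5% in BEAS-2B cells. Its share was thus higher in the treated libraries of both lines. In A549 the share of FOS was 21.9%, 1.10% and 2.22%, and in BEAS-2B cells that of FOSL1 was 47.7%, 32.8% and 23.7%.

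The JUN family had 1128, 2194 and 2553 counts in A549 and 2643, 4549 and 4551 in BEAS-2B cells. Its summed level at 5 ng/mL was 1.77 (1.65 to 1.90) times the control in A549 and 1.94 (1.85 to 2.04) times in BEAS-2B cells. The share of JUN was 21.6%, 30.5% and 38.3% in A549 and 67.5%, 72.9% and 71.5% in BEAS-2B cells. That of JUND was 45.6%, 21.7% and 21.2% in A549 and 22.1%, 11.5% and 12.5% in BEAS-2B cells. In both lines the constitutive subunit thus took a smaller part of the JUN family counts after treatment. JUN family counts per FOS family count were 5.61, 4.04 and 6.30 in A549 and 8.58, 19.4 and 22.0 in BEAS-2B cells.

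**Figure D4:**
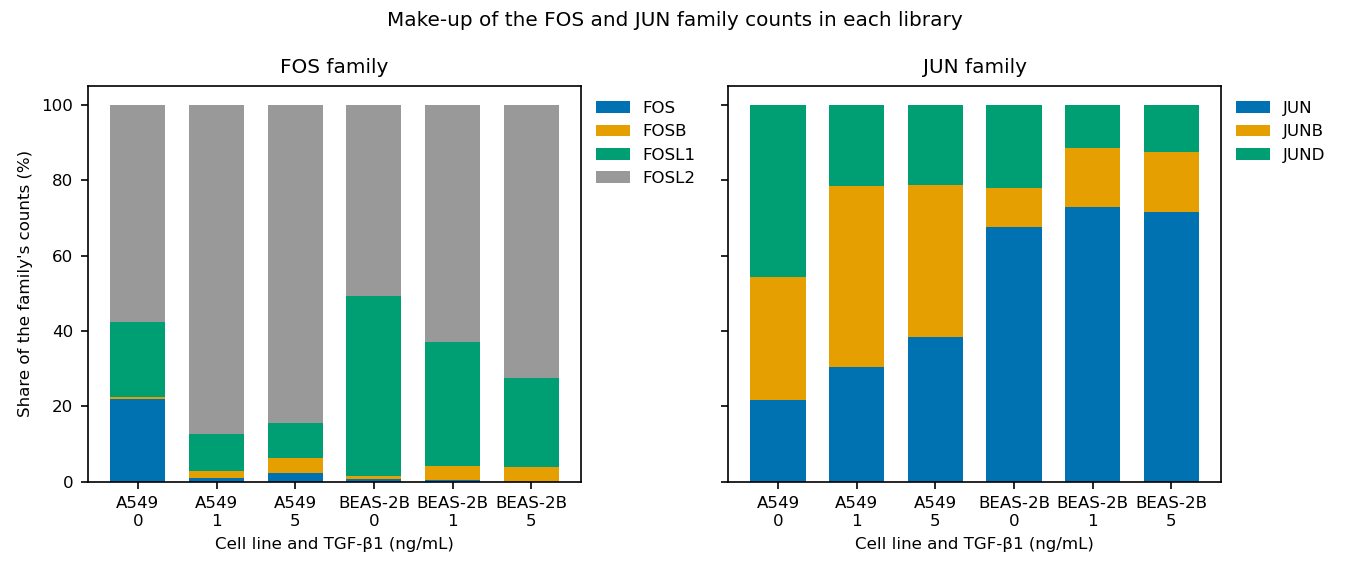
Stacked bars of the share of each gene in the summed counts of the FOS family (left) and the JUN family (right), in percent (y axis, from 0), for each of the 6 libraries, named by cell line and TGF-β1 dose in ng/mL (x axis). The FOSL2 share is 57.7% in the A549 control and 84.4% at 5 ng/mL, and the JUND share is 45.6% and 21.2%.

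ATF3, a stress-induced repressor that pairs with JUN proteins (ENSG00000162772, chr1:212565334-212620777, plus strand), had normalized counts of 54.5, 33.0 and 18.1 in A549 and 115, 58.5 and 64.2 in BEAS-2B cells at 0, 1 and 5 ng/mL. The control had the highest level in each line. The ratios to control at 1 and 5 ng/mL were 0.606 (0.397 to 0.925) and 0.333 (0.187 to 0.573) in A549. The BEAS-2B ratios were 0.509 (0.358 to 0.718) and 0.559 (0.392 to 0.790). All 4 intervals exclude 1, yet ATF3 stayed under the level minimum and was not called. Its BEAS-2B control, at an ND value of 6.86, was just outside it.

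EGR1, the zinc finger factor whose promoter holds the 2 CArG boxes (ENSG00000120738, chr5:138465490-138469315, plus strand), had normalized counts of 16.2, 25.4 and 19.1 in A549 and 85.9, 75.4 and 101 in BEAS-2B cells. The BEAS-2B libraries were all above the A549 libraries. No treated library differed from its control by more than counting error, with ratios at 5 ng/mL of 1.17 (0.570 to 2.50) in A549 and 1.17 (0.847 to 1.63) in BEAS-2B cells. At these counts, 14 to 80 per library, a 2-fold difference in A549 lies within the interval.

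MYC (ENSG00000136997) had normalized counts of 63.7, 32.3 and 24.5 in A549 and 22.3, 27.0 and 23.9 in BEAS-2B cells. The A549 control stood above the other 5 libraries. In A549 the level was 1.97-fold (1.31 to 2.98) lower than control at 1 ng/mL and 2.60-fold (1.61 to 4.29) lower at 5 ng/mL. In BEAS-2B cells the ratio was 1.21 (0.641 to 2.31) at 1 ng/mL and 1.07 (0.542 to 2.12) at 5 ng/mL, with 19 to 24 counts per library. The log2 ratio in A549 minus that in BEAS-2B cells was −1.26 (−2.28 to −0.23) at 1 ng/mL and −1.48 (−2.60 to −0.36) at 5 ng/mL. MYC stayed under the minimum in all libraries, so that none of these differences was called.

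The untreated lines differed in several of these genes before any TGF-β1 was given. JUN and FOSL1 were lower in the A549 control than in the BEAS-2B control and none of the 10 was higher, beside 37.0% of all 7329 genes called in either direction. With an ND minimum of 6, 5 of the 10 were called, with MYC as the 1 higher in A549, and with the GC trend removed JUNB was called higher in A549, at a log2 FC of 1.06 in place of 0.49. JUN was 7.04-fold (6.15 to 8.08) lower and FOSL1 was 3.54-fold (2.48 to 5.15) lower. Under the minimum, EGR1 was 5.29-fold (2.97 to 10.1) and ATF3 was 2.11-fold (1.48 to 3.05) lower in A549. FOS, at 44 against 2 counts, had a ratio of A549 to BEAS-2B of 22.9 (5.96 to 195), and MYC had one of 2.86 (1.68 to 5.03). For FOSL2, JUNB and JUND the ratio of A549 to BEAS-2B was 0.772 (0.602 to 0.989), 1.40 (1.20 to 1.65) and 0.913 (0.809 to 1.03).

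Against these baselines the responses of the lines were compared gene by gene, as the log2 ratio in A549 minus that in BEAS-2B cells with its counting interval. For JUN the difference was −0.21 (−0.43 to 0.02) at 1 ng/mL and 0.61 (0.39 to 0.82) at 5 ng/mL. For JUNB it was −0.64 (−0.90 to −0.38) and −0.45 (−0.72 to −0.19), and for JUND −0.72 (−0.96 to −0.47) and −0.41 (−0.65 to −0.17). JUNB and JUND were thus relatively lower in A549 at both doses, and JUN was relatively higher at 5 ng/mL. With the GC trend removed, the difference in log2 FC at 1 and 5 ng/mL was −0.45 and 0.24 for JUN, −1.36 and −1.03 for JUNB and −1.44 and −0.99 for JUND. All of these values lay below the counting intervals given above. For FOSL1 the difference was 0.60 (−0.11 to 1.31) at 1 ng/mL and 0.98 (0.19 to 1.78) at 5 ng/mL. With the GC trend removed, its difference in log2 FC was 0.16 at 1 and 0.57 at 5 ng/mL.

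Other genes of the same pathways were counted from lists, and at 5 ng/mL the median log2 FC of all genes at the minimum was 0.11 in A549 and 0.03 in BEAS-2B cells. The shares upregulated and downregulated among all genes at the minimum, beside which each list stands, were 16.1% and 17.1% in A549 and 7.33% and 11.6% in BEAS-2B cells. Of 18 textbook AP-1 targets, 12 reached the minimum in each line. In A549 5 were upregulated and 3 downregulated, with a median log2 FC of 0.44, and in BEAS-2B cells 6 were upregulated and 3 downregulated, with a median of 0.86. IL11, encoding a fibrogenic cytokine, rose by a log2 FC of 3.91 in A549 and 3.07 in BEAS-2B cells. HBEGF, encoding an EGF receptor ligand, rose by 2.95 and 1.18. PLAU, encoding urokinase, fell in both lines, with log2 FC of −3.83 and −3.69. AP-1 targets thus moved in both directions within each line.

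Of 31 entries of other immediate early genes, 13 reached the minimum in A549 and 12 in BEAS-2B cells, and 3 were upregulated and 3 downregulated in each line, with median log2 FC of 0.57 and 0.33, beside 16.1% up and 17.1% down in A549 and 7.33% and 11.6% in BEAS-2B cells for all genes. IER3, an early gene of cell survival, rose by a log2 FC of 3.27 in A549 and 1.72 in BEAS-2B cells. CTGF, encoding a matricellular growth factor, rose by 3.23 and 1.47. Its relative CYR61 had log2 FC of −3.01 and −4.07 and the kinase gene PLK2 of −1.57 and −2.79, so that both fell in both lines. Under these names the family members CTGF and CYR61 were on opposite sides of their controls.

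Of 16 MAPK phosphatase and Sprouty/SPRED genes, whose products restrain MAPK signaling, 6 reached the minimum in A549. There 4 were downregulated and none upregulated, with a median log2 FC of −1.43, beside 17.1% of all genes downregulated. In BEAS-2B cells 3 reached the minimum, of which 1 was downregulated and none upregulated, with a median of −0.47, beside 11.6%. DUSP4 fell in both lines, with log2 FC of −1.24 and −1.16. In A549 DUSP5 (−1.84), DUSP6 (−3.02) and DUSP16 (−1.61) also fell. Of the A549 libraries, DUSP5 and DUSP6 reached the minimum only in the control, so that they could be called only as lower. SPRED1 reached it only in the treated A549 libraries and could be called only as higher. Between the controls 5 genes of this list were called, all as higher in A549. Of all 7329 genes at the minimum 1324 were called as higher in A549, and 37.0% were called in either direction. DUSP4 and DUSP16 reached the minimum in both controls, with log2 FC of 1.20 and 2.26. DUSP1, DUSP5 and DUSP6 reached it in the A549 control but not in the BEAS-2B control, so that they could be called only as higher in A549. Of 26 kinases and factors upstream of the immediate early genes, 19 reached the minimum in A549 (5 up, 4 down) and 15 in BEAS-2B cells (1 up, 1 down), with medians of −0.14 and −0.22. ELK3, a partner of serum response factor, rose in both lines, by log2 FC of 1.80 and 1.25. Both EGR co-repressor genes reached the minimum, and NAB1 rose in A549, by 1.24, whereas neither was called in BEAS-2B cells.

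Of 10 stress genes that work with ATF4 and ATF3, 9 reached the minimum in A549 (1 up, 4 down) and 7 in BEAS-2B cells (3 up, 1 down), with median log2 FC of −0.70 and 0.98. For this list and the MYC lists, all genes were at 16.1% up and 17.1% down in A549 and at 7.33% up and 11.6% down in BEAS-2B cells. SESN2, a sestrin gene of the amino acid response, rose in both lines, by log2 FC of 1.19 and 1.03. PPP1R15A, whose product reverses the translational arrest of that response, fell in both, with −1.71 and −1.36. Of 14 genes of the MYC network, 9 reached the minimum in A549 (1 up, 1 down) and 8 in BEAS-2B cells (1 up, none down), with medians of 0.15 and 0.30. MLXIP, encoding the glucose sensor MondoA, rose by log2 FC of 2.14 and 1.65. Of 20 textbook MYC targets, 18 reached it in A549 (4 up, 3 down) and 16 in BEAS-2B cells (2 up, none down), with medians of 0.35 and 0.52. SRM, encoding spermidine synthase, rose by 1.17 and 1.48. In A549 the calls among the listed MYC targets, 4 up and 3 down of 18, were near the shares of all genes. A link between the MYC level and these targets was not tested.

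The genes whose pattern was most like that of each of the 5 genes at the minimum were found over the 6 libraries. The measure was the Euclidean distance of log2 normalized counts, centred on each gene's mean. The search covered the 8159 entries that reached the minimum in any library. Nearest to JUNB were TBC1D16 (distance 0.19), CD3EAP (0.25) and SPSB1 (0.32). Nearest to FOSL2 were POLR2J (0.18), OAZ2 (0.21) and DNAAF1 (0.22), and nearest to JUND were NBPF11 (0.17), PURB (0.20) and AHCYL1 (0.25). FOSL1 was nearest to CTNNAL1 (0.28), NUP188 (0.32) and RNF5P1 (0.33). JUN had no entry as close, with ANXA6 (0.62), CCDC28B (0.63) and P4HA2-AS1 (0.66) as the nearest. None of the nearest entries was another of these 5 genes. FOS, FOSB, ATF3, EGR1 and MYC, under the minimum in every library, were not among the entries searched.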

How the data were processed

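Total RNA of 6 cultures was made into QuantSeq 3′-mRNA libraries. The values the authors deposited are raw read counts per gene symbol, whole numbers without normalization, with totals of 4120624 to 7841350 per library. Per the labels' processing notes the tools were Bowtie2 and bedtools with the build hg19. Their settings and the use of strand are not given in the sources used here, and the paper names ExDEGA for quantification. Samples were grouped by their labels.

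TMM factors over the 6 libraries came from edgeR 4.0.16 in R 4.3.3. Ratios, exact 95% Clopper-Pearson intervals and calls (FC of at least 2, ND value of at least 7 in 1 library) were computed with scipy 1.17.1, pandas 2.3.3 and numpy 2.4.6 under Python 3.11.15, and plots with matplotlib 3.10.9. With 1 library per condition there was no test within a line. A dose effect shared by both lines was tested with edgeR's quasi-likelihood test on entries with at least 10 counts in 1 library, with line and dose as terms, and with DESeq2, both chosen after seeing the data. The steps were tested on simulated data. All 10 genes are named. From each related list those called in the same direction in both lines at 5 ng/mL are named, up to the 4 with the largest mean change, and the 3 entries nearest in pattern to each gene at the minimum. DUSP1, DUSP5, DUSP6, DUSP16, NAB1 and the genes under other observations were named after their values were seen. Some listed genes that this rule covers are not reported here. The genes and lists were chosen with earlier results of these data known.

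Positions are those of GENCODE in GRCh38, not the counted hg19 intervals. For 95.6% of 9848 expressed genes a transcript sequence gave the GC content. Alternatives were DESeq2 1.42.0 size factors, total counts, upper quartile factors, TMM within each line, a filter of at least 10 counts, pseudocounts of 0.1 and 5, thinning to the smallest total, other level and fold limits, and removal of the GC trend in 20 bins.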

Additional observations from a re-analysis of the deposited data

Results flagged for a closer look

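MYC was flagged because the sign of its log2 FC differed between the lines at both doses. On the scale of log2 FC with a pseudocount of 1, the A549 value minus the BEAS-2B value was −1.22 at 1 ng/mL and −1.44 at 5 ng/mL. MYC was below its control in both treated A549 libraries (log2 FC −0.96 and −1.34) and above it in both treated BEAS-2B libraries (0.26 and 0.10). The difference between the lines was not tested. In BEAS-2B cells MYC had 19 to 24 counts, and with total counts its log2 FC at 5 ng/mL was −0.03. The intervals of its BEAS-2B ratios, 1.21 (0.641 to 2.31) and 1.07 (0.542 to 2.12), include 1, so that no direction can be read there. No group had the 4 libraries needed to look for a library far from its own group.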

How the results depend on the processing

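Of the 10 genes, 1 was called at 1 ng/mL and 3 at 5 ng/mL in A549, and 1 and 3 in BEAS-2B cells. With total counts in place of TMM these were 2 and 1 in A549 and 2 at 1 ng/mL in BEAS-2B cells. With the GC trend removed they were 2 at 1 ng/mL in each line. With a fold limit of 3 they were 0 and 1 in A549 and 0 and 0 in BEAS-2B cells, and with a limit of 1.5 they were 4 (A549) and 3 (BEAS-2B) at 1 ng/mL, and 2 between the A549 doses. With log2(CPM + 1) as the level, 0 were called at 1 ng/mL in A549. Between the controls, where 2 were called, 5 were called at a level minimum of 6, and 1 at a minimum of 8, with the minimum in both libraries or with log2(CPM + 1).

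No called change reversed sign. Uncalled values that changed sign were JUNB in A549 at 1 ng/mL (0.75 to −0.02), JUND in BEAS-2B cells at 5 ng/mL (0.14 to −0.07) and JUND between the controls (−0.13 to 0.44) with the GC trend removed, and FOSL2 (0.12 to −0.01) and MYC (0.10 to −0.03) in BEAS-2B cells at 5 ng/mL with total counts. So did FOSL2 there at 1 ng/mL with upper quartile factors (−0.06 to 0.01), and with thinning FOSL1 between the A549 doses (−0.10 to 0.10) and FOSB between the BEAS-2B doses (−0.0066 to 0.0004). All 70 log2 FC of the 10 genes moved by less than their counting intervals under DESeq2 size factors, upper quartile factors, TMM within each line, the count filter, both pseudocounts and thinning. With total counts 5 moved by more and with the GC trend removed 13 did. Total counts shifted the median log2 FC of all genes by −0.17 and −0.20 in A549 and by −0.13 at both doses in BEAS-2B cells. The share of upregulated genes among the calls at 1 ng/mL went with it from 46.5% to 32.2% in A549 and from 38.3% to 27.3% in BEAS-2B cells, and with the GC trend removed it was 34.1% in A549 at 1 ng/mL.

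Over all genes 1649, 2366, 988 and 1277 were called (A549 at 1 and 5, BEAS-2B at 1 and 5 ng/mL), and 220, 57 and 2710 between the A549 doses, the BEAS-2B doses and the controls. In that order, a level minimum of 8 gave 1012, 1556, 604, 797, 126, 12 and 1779, and the minimum in both libraries gave 747, 1099, 448, 575, 106, 11 and 1135. With log2(CPM + 1) there were 441, 728, 272, 357, 57, 3 and 829. A fold limit of 1.5 gave 3205, 3991, 2310, 2789, 1088, 569 and 4332, and a limit of 3 gave 674, 1090, 368, 497, 36, 3 and 1389. Between doses a level minimum of 6 gave 385 and 188, and thinning gave 34 in BEAS-2B cells.

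Depth limits the genes with few counts: FOS and FOSB had 0 to 44 counts per library, and a count of 0 allows up to 3. No paired analysis within a line was possible because each condition was 1 library. The fit over both lines with the line as a block, chosen after seeing the data, called 0 of the 10 genes at 1 ng/mL and 2 at 5 ng/mL by edgeR's adjusted p under 0.05, beside 3 and 5 at an unadjusted p under 0.05. Of all 14527 entries 2833 and 3993 had an unadjusted p under 0.05 by edgeR. With the GC trend removed in the same fit 1 was called at 5 ng/mL, and with DESeq2 1 at 1 ng/mL. Leaving out each library in turn gave 0 to 4 at 1 ng/mL, with 4 without the BEAS-2B control and 1 without the A549 control, and 0 to 3 at 5 ng/mL, with 0 without the A549 library at 5 ng/mL and 1 without the BEAS-2B library at 5 ng/mL.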

Other observations

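Among the 13 other bZIP genes that can pair with AP-1 or bind its sites, 3 reached the minimum in A549 and 6 in BEAS-2B cells. MAF, encoding a large MAF protein, had 0, 95 and 145 counts in BEAS-2B cells and 1, 31 and 79 in A549 at 0, 1 and 5 ng/mL. It reached the minimum at 5 ng/mL in BEAS-2B cells, where it was called as higher. In A549 the small MAF genes went opposite ways at 5 ng/mL, MAFK with a log2 FC of 1.45 and MAFG with one of −1.64, and JDP2, encoding a repressor that pairs with JUN proteins, had one of 1.32. None of these was called in BEAS-2B cells, with 0.69, −0.35 and −0.15. Whether the lines differ was not tested.

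CEBPB, encoding an inflammatory bZIP factor that pairs with ATF4, had normalized counts of 1033, 412 and 228 in A549 and 312, 349 and 616 in BEAS-2B cells. It fell in A549 and had a log2 FC of 0.98, just under the limit, in BEAS-2B cells at 5 ng/mL. SRF, encoding serum response factor, fell in BEAS-2B cells with a log2 FC of −1.68 at 5 ng/mL and had −0.78 in A549. A link between its level and that of EGR1, whose promoter holds matches to its site, was not tested. At 5 ng/mL ATF4 was called as higher in BEAS-2B cells, with 1.09, and had 0.89 in A549, while ATF3 was lower than control in both lines.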
